A study of Bos taurus with 6 samples.

Results

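The genes described here encode splicing factors and heterogeneous nuclear ribonucleoproteins (hnRNPs), the proteins that bind pre-mRNA and remove its introns. They were chosen by name, as every gene whose single symbol in the platform annotation begins with SRSF, SNRP, SF3A, SF3B, HNRNP, PRPF or U2AF, or with LSM and a digit. This gave 65 of the 6337 named genes on the array, measured by 89 of its 12763 probe sets, and a gene with several was represented by the one with the highest mean over the 6 arrays. The RNA came from white blood cells of female Sanhe cattle, a Chinese breed, sampled as heifers, with no genetic or drug treatment in either group. Arrays 4, 5 and 6 hold blood taken before cold. Arrays 1, 2 and 3 hold blood taken after it, where the cold was -32 °C outdoors for 3 hours and then 15 hours in a shed at 5 °C. The submitters' design text states that 3 of 30 heifers gave all 6 samples, and the labels do not say which samples share an animal, nor the animals' age in numbers or the moment of the second draw. Of 81 protein-coding genes with such names in the RefSeq table of the assembly ARS-UCD2.0, 16 are not analysed here, among them SRSF2, HNRNPA1, HNRNPA2B1, SNRPD1, SNRPE, SNRPF and U2AF2.

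The spliceosome assembles on each intron from small nuclear ribonucleoproteins (snRNPs), particles of a short RNA and proteins. A ring of Sm proteins sits on most of these RNAs and a ring of LSm proteins on U6, the SF3A and SF3B complexes let the U2 particle grip the branch point, U2AF reads the end of the intron, and many PRPF proteins build or drive the catalytic machine. SR proteins bind exons and mostly promote their use, while hnRNPs coat the transcript and often oppose it. In white blood cells this balance is known for setting which exons of the PTPRC (CD45) transcript are kept as lymphocytes are activated.

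No gene of the 65 passed the test between blood cells after and before cold, and the families' median changes had opposite signs: -0.25 for PRPF, -0.22 for SR protein, 0.16 for LSm and 0.27 for Sm core genes. The difference between families was not tested. The SR protein median turned to 0.023 without after 3 and to 0.0026 without before 6, and the PRPF median was -0.043 without the dimmest 50% of probe sets. In limma, a linear model with moderated variance fitted over all probe sets, 0 of the 65 passed an adjusted p of 0.05, as did 0% of all named genes. At an unadjusted p under 0.05 there were 0 members, against 0.505% of named genes lower and 0.0316% higher after cold. The smallest unadjusted p of a member was 0.105, for PRPF38A, in limma. The mean after cold was lower in 28 members, or 43.1%, against 43.7% of named genes, and the median change was 0.02 on the log2 scale, against 0.05 over all named genes. Counts of higher and lower means per family below stand beside these 43.7%, and genes of a family are not replicates. At least 1.5-fold lower were 3 members (PRPF18, PRPF38A and SRSF10), where 6.82% of named genes were, and 0 were as much higher, where 0.142% were. All values below are log2 intensities, a change is the mean after minus the mean before cold, its error is the standard error (SE) of the fit, and the error of a mean is the standard deviation (SD, n = 3). Arrays are always given in the order 1, 2, 3 after cold and 4, 5, 6 before. Levels of different genes are not compared, since probe sets differ in brightness.

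**Figure D1:**
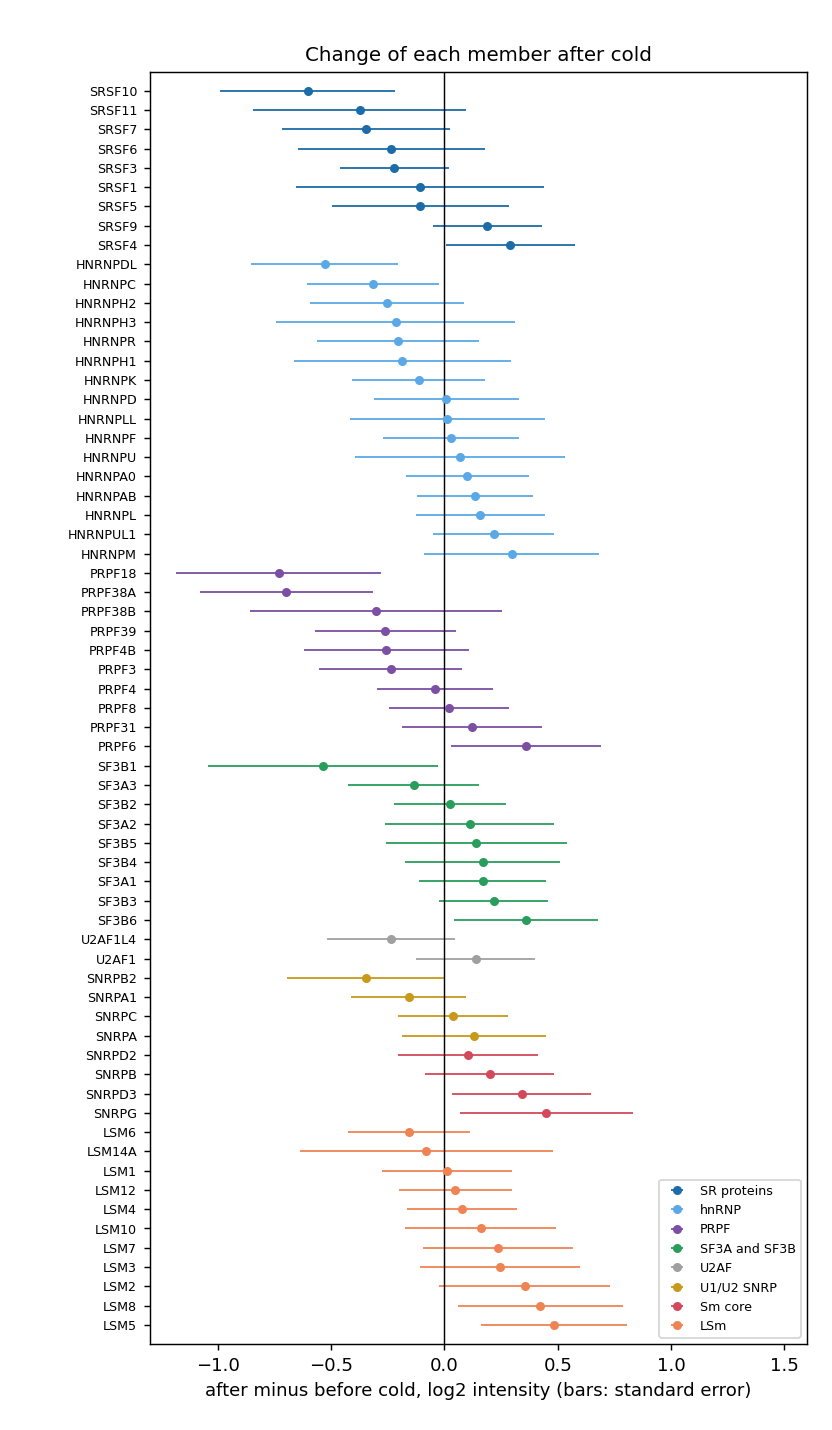
Change of each of the 65 genes after cold (x axis, difference of group means in log2 intensity; bars are standard errors of the fit, 3 arrays per group), ordered by family. The values run from -0.73 for PRPF18 to 0.48 for LSM5, with all 4 Sm core genes above 0 and 7 of 9 SR protein genes below it.

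The arrays themselves set the scale of these differences. After 2 and before 6 correlated at 0.995 across the 12674 probe sets that are not members, while after 2 and after 3, of a single group, correlated at 0.873. The first principal component of those probe sets held 68.3% of the variance and scored 51.9 on after 2 and 51.8 on before 6, against -63.0 on after 3, -23.2 on after 1, -16.2 on before 5 and -1.36 on before 4. The array medians lay between 7.25 and 7.49. Of the white cell markers 8 of 13 were measured. The log2 of their summed intensity was higher on after 2 (14.05), before 4 (14.06) and before 6 (14.05) than on after 1 (13.77), after 3 (13.83) and before 5 (13.76). In such a sum the brightest markers weigh most, and single markers went in different directions. PTPRC and MS4A1 were highest on after 2 and before 6, while CD79A (9.88 and 9.71) and CSF1R (8.26 and 8.50) were lowest there. CD3D, CD3E, CD2 and CD14 did neither. Lymphocyte genes (CD3D, CD3E, CD2, CD79A and MS4A1) and the monocyte genes CD14 and CSF1R lay between 8.26 and 12.17 on all arrays, and no marker was at 0. The single platelet marker measured, PF4, ran from 12.42 to 12.64 after and from 12.49 to 12.78 before, and the summed red cell markers HBB and ALAS2 from 12.07 to 12.30 after and from 11.90 to 12.28 before. The part of cell mixture in any value below was not tested, and in these bulk samples fewer cells of a type and less RNA per cell cannot be told apart.

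SR proteins carry an RNA-binding domain and a tail rich in arginine and serine. Of 9 genes measured, the mean after cold was lower in 7 and higher in 2, 0 passed the test and the median change was -0.22. Without after 2 the median was -0.61, without after 3 it was 0.023 and without before 6 it was 0.0026. SRSF10 (gene ID 768310), a splicing regulator known to turn into a repressor in heat-shocked cells, was at 9.17, 9.83 and 8.33 after cold and 9.56, 9.68 and 9.91 before. Its after 2 value lay inside the range before cold and after 1 and after 3 lay under it, so the groups overlapped. The change was -0.60 ± 0.39 (SE; limma, adjusted p = 1.00), -0.21 without after 3 and -0.96 without after 2.

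SRSF3, the smallest SR protein and an adaptor for mRNA export, was the 1 member whose values after cold all lay under all values before. It was at 11.35, 11.36 and 11.11 after cold against 11.45, 11.43 and 11.60 before. The gap between the nearest arrays was small next to the SE, and the change was -0.22 ± 0.24 (SE; limma, adjusted p = 1.00). Such separation was seen in 1.54% of members and in 3.00% of named genes. SRSF11 stood at 9.73, 10.88 and 9.17 after cold and at 9.98, 9.9996 and 10.92 before, so that after 2 and before 6 were about equally high. SRSF1, the prototype of the family, showed the same 2 arrays on top still more clearly, with 8.93 on after 2 and 8.97 on before 6 against 7.25 to 7.87 on the other 4. Its change was -0.11 ± 0.55, and its other probe sets gave 0.04 and 0.03. SRSF4 and SRSF9 were the members with a higher mean, by 0.29 ± 0.29 and 0.19 ± 0.24. SRSF7 differed by -0.35 ± 0.37, SRSF6 by -0.23 ± 0.41 and SRSF5 by -0.11 ± 0.39, all within their errors.

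The hnRNP genes were evenly divided, with 9 of 16 higher, 7 lower, 0 past the test and a median change of 0.01. That median was -0.29 without after 2, -0.22 without before 5, -0.050 without before 4 and 0.15 without before 6. HNRNPDL (gene ID 534770), a relative of the AU-rich element binder HNRNPD, had the largest difference. It was at 9.98, 10.45 and 9.44 after cold and at 10.41, 10.28 and 10.77 before. Here too after 2 sat among the values before cold and after 1 and 3 under them, and the change was -0.53 ± 0.32 (SE; limma, adjusted p = 1.00). A second HNRNPDL probe set gave -0.56 ± 0.50. HNRNPC, which binds uridine tracts, was at 10.68, 11.19 and 10.34 after and within 10.98 and 11.12 before cold, a change of -0.32 ± 0.29. HNRNPD itself differed by 0.0080 ± 0.32.

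HNRNPH1, HNRNPH2 and HNRNPH3, a trio of related binders of guanine runs, were all highest on after 2 and before 6. HNRNPH3 was at 8.45, 9.59 and 7.79 after cold and at 8.87, 8.06 and 9.55 before, a range of 1.80 over the 6 arrays, beside a change of -0.21 ± 0.53. On these arrays HNRNPH1 reached 11.86 and 11.82, and HNRNPH2 8.12 and 8.20. HNRNPU, a nuclear scaffold protein, was at 10.89 and 10.80 on those 2 arrays and between 9.26 and 10.28 on the others. HNRNPLL, known as a regulator of PTPRC exon choice in activated T cells, was at 7.85, 8.24 and 6.78 after cold and at 7.42, 7.25 and 8.17 before. Its change was 0.01 ± 0.43. PTPRC, all isoforms together as far as its probe set can tell, was also highest on after 2 and before 6, with 12.38 on each against 11.19 to 11.77 on the other arrays. HNRNPM had the largest positive change of the family, 0.30 ± 0.39, and was at 11.45 and 11.39 on the same pair of arrays. HNRNPUL1 (0.22 ± 0.27), HNRNPL (0.16 ± 0.28), HNRNPAB (0.14 ± 0.26) and HNRNPA0 (0.10 ± 0.27) had higher means that stayed within their errors. HNRNPK, a binder of cytosine-rich tracts, differed by -0.11 ± 0.29, HNRNPR by -0.21 ± 0.36 and HNRNPF by 0.03 ± 0.30.

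The Sm core genes encode parts of the ring on most spliceosomal RNAs. All had higher means after cold, 4 of 4, where 3566 of 6337 named genes did. Their median change was 0.27, with 0 past the test. The median was positive without each array in turn, from 0.12 without after 3 to 0.47 without after 2. SNRPG (gene ID 522621) was at 8.93, 8.01 and 9.35 after cold and at 8.03, 8.67 and 8.24 before. After 1 and after 3 stood above all arrays before cold and after 2 was the lowest of the 6, giving 0.45 ± 0.38 (SE; limma, adjusted p = 1.00). SNRPD3 was at 10.04, 9.66 and 10.51 after cold and at 9.69, 10.01 and 9.49 before. Only after 2 lay within the range before cold, and the change was 0.34 ± 0.31. SNRPB differed by 0.20 ± 0.28 and SNRPD2 by 0.10 ± 0.31, and SNRPD2 was lowest on after 2 (10.93) and before 6 (10.88).

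LSm proteins resemble Sm proteins, and those numbered LSM2 to LSM8 form the ring on U6 RNA. Of 11 LSm genes 9 had a higher mean after cold, 0 passed the test and the median change was 0.16, or 0.058 without after 3, 0.052 without before 6 and 0.46 without after 2. LSM5 (gene ID 615136) had the largest positive change of all 65 genes. It was at 10.12, 9.14 and 10.09 after cold and at 9.36, 9.30 and 9.24 before. The before arrays lay close together, after 1 and 3 stood well over them and after 2 just under, for a change of 0.48 ± 0.32 (SE; limma, adjusted p = 1.00). LSM8, found only in the U6 ring, was at 10.57, 9.43 and 10.46 after cold and at 9.64, 10.07 and 9.48 before, a change of 0.42 ± 0.36. LSM2 differed by 0.35 ± 0.38, LSM3 by 0.24 ± 0.35, LSM7 by 0.24 ± 0.33 and LSM4 by 0.08 ± 0.24. LSM6 had a lower mean, at -0.16 ± 0.27, with its lowest value on after 3 (7.55).

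LSM1, which takes the place of LSM8 in the cytoplasmic ring of mRNA decay, differed by 0.01 ± 0.29. LSM10, of the U7 particle that processes histone mRNA, had its lowest values on after 2 (7.01) and before 6 (7.10) and 7.61 to 7.98 elsewhere. LSM14A, a longer protein of cytoplasmic RNA granules, had the opposite shape, at 9.94 on after 2 and 9.81 on before 6 against 8.11 to 8.55 elsewhere. Its change was -0.08 ± 0.56, and LSM12 differed by 0.05 ± 0.25.

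Among the SF3A and SF3B genes 7 of 9 had a higher mean after cold, with 0 past the test and a median change of 0.14. The median turned to -0.077 without after 3 and to -0.044 without before 6, and was 0.34 without after 2. SF3B1 (gene ID 510177), the large subunit that clamps the branch point, had a lower mean. It was at 9.15, 10.42 and 8.41 after cold and at 9.73, 9.46 and 10.40 before. After 2 and before 6 were again nearly equal and after 3 was 2.01 under after 2, so the change of -0.54 ± 0.51 (SE; limma, adjusted p = 1.00) was smaller than the spread within the group after cold (SD 1.02). Its other 3 probe sets gave -0.43 ± 0.50, -0.65 ± 0.54 and -0.81 ± 0.62, the same sign in all 4. The value without after 3 was -0.077 and that without after 2 was -1.08.

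SF3B6, the small subunit next to the branch point, was at 11.72, 10.81 and 11.70 after cold and at 11.04, 11.23 and 10.89 before. After 2 was the lowest array and after 1 and 3 the highest, and the change was 0.36 ± 0.32 (SE). A much dimmer second probe set for SF3B6 gave -0.62 ± 0.47, the widest disagreement within a member. SF3B3 was the 1 member whose values after cold all lay above those before, with 10.08, 10.04 and 10.29 against 9.94, 9.97 and 9.85. Its change was 0.22 ± 0.24 (SE; limma, adjusted p = 1.00), and such separation was seen in 1.54% of members against 2.02% of named genes. SF3B5, a small subunit, had its lowest values on before 6 (8.58) and after 2 (8.68), the other 4 arrays giving 9.17 to 9.76, for a change of 0.14 ± 0.40. SF3A1 (0.17 ± 0.28), SF3B4 (0.17 ± 0.34), SF3A2 (0.11 ± 0.37), SF3B2 (0.02 ± 0.25) and SF3A3 (-0.14 ± 0.29) had changes smaller than their errors. The SF3A2 probe set is of a type that can match transcripts of more than one gene.

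Proteins specific to the U1 and U2 particles gave 2 higher and 2 lower means, 0 past the test, with a median of -0.06. SNRPB2, of the U2 particle, was at 10.41, 9.97 and 9.18 after cold and at 10.26, 10.35 and 9.99 before. Only after 3 stood clearly low, and the change was -0.35 ± 0.35 (SE). Its U2 partner SNRPA1 differed by -0.16 ± 0.25, and the U1 proteins SNRPA and SNRPC by 0.13 ± 0.32 and 0.04 ± 0.24. Of the U2AF genes, U2AF1, which recognises the AG at the intron end, differed by 0.14 ± 0.26 and its relative U2AF1L4 by -0.24 ± 0.28, neither past the test.

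The PRPF genes act from U1 binding to the second catalytic step, and 7 of 10 had a lower mean after cold, with 0 past the test and a median of -0.25. Without after 3 the median was -0.065, and without after 2 it was -0.45. PRPF18 (gene ID 507639), a factor of the second step, had the largest change of all 65 genes. It was at 7.004, 7.62 and 5.79 after cold and at 7.83, 7.36 and 7.41 before. After 3 was the lowest by more than 1 log2 unit while after 2 lay inside the range before cold, and the change was -0.73 ± 0.45 (SE; limma, adjusted p = 1.00). A second PRPF18 probe set gave -0.80 ± 0.38, and the value without after 3 was -0.22.

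PRPF38A, a protein of the precatalytic complex, was at 3.03, 3.80 and 2.49 after cold and at 3.68, 3.51 and 4.22 before. The change was -0.70 ± 0.38, but only 1.03% of probe sets were dimmer, so these values lie at the low end of what the table holds. Its relative PRPF38B had the widest range of any member, 2.21, from 7.21 on after 3 to 9.42 on after 2, with before 6 at 9.23. Its change was -0.30 ± 0.56. PRPF6, a bridge between U5 and the U4/U6 particle, was the member of this family with the largest positive change, 0.36 ± 0.33, at 8.59, 7.73 and 8.69 after cold and at 8.22, 8.02 and 7.70 before. PRPF8, the scaffold of the catalytic centre, was nearly level, at 10.55, 10.38 and 10.90 after and 10.77, 10.60 and 10.40 before (0.02 ± 0.27). PRPF39 (-0.26 ± 0.31), the kinase PRPF4B (-0.26 ± 0.36) and the U4/U6 proteins PRPF3 (-0.24 ± 0.32), PRPF4 (-0.04 ± 0.26) and PRPF31 (0.12 ± 0.31) had changes smaller than their errors.

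**Figure D2:**
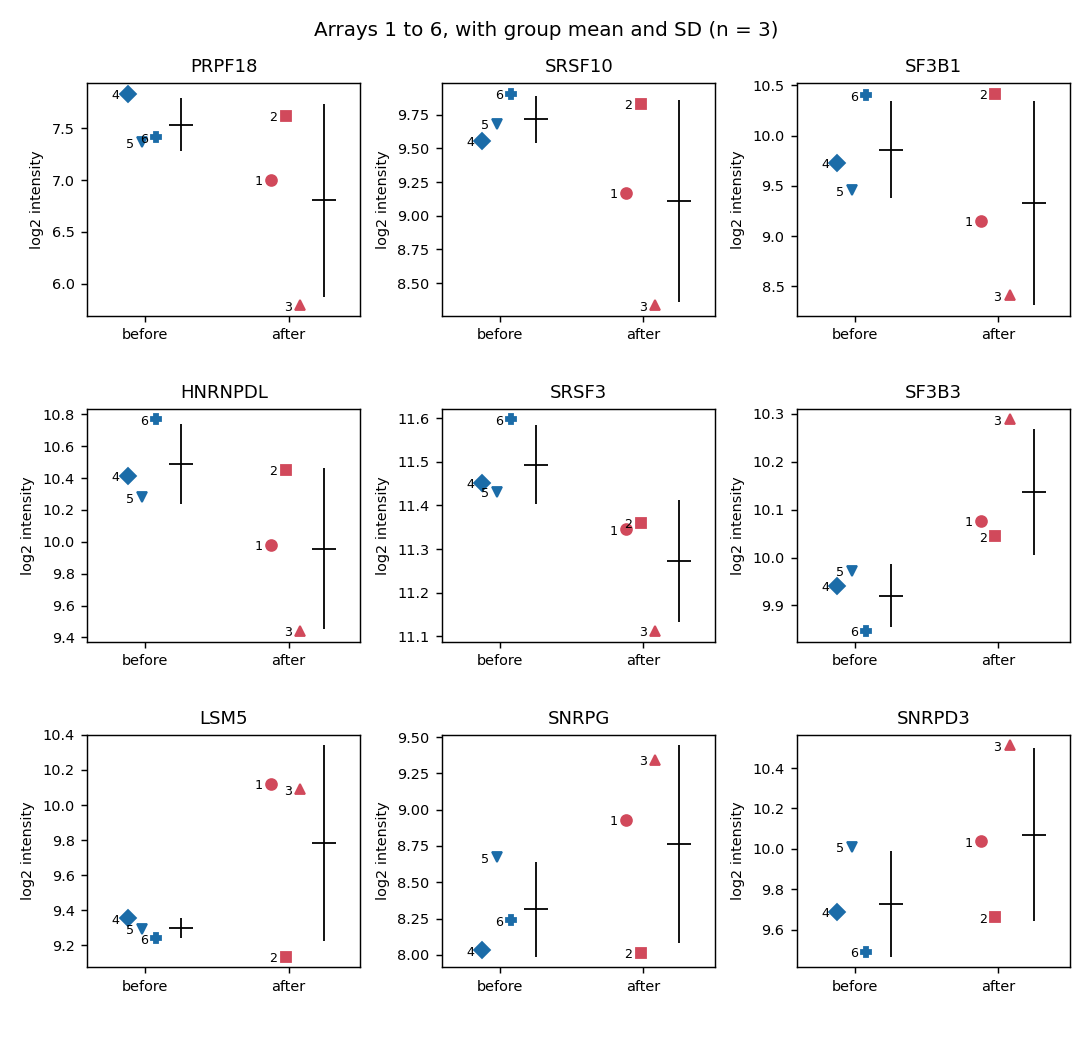
Log2 intensity (y axis) of 9 members on each array before (blue) and after (red) cold, numbered by array, with the group mean and SD (n = 3) beside the points. In SRSF3 and SF3B3 the groups do not overlap, while in PRPF18, SRSF10 and HNRNPDL after 2 lies within the range before cold and after 3 lies lowest.

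The arrays after 2 and before 6 were often alike and apart from the rest. In 25 members, or 38.5%, both of these arrays lay above the other 4, against 25.5% of named genes. In 24, or 36.9%, both lay below the other 4, as in 36.9% of named genes. The high pattern held in 7 of 9 SR protein genes, 11 of 16 hnRNP genes and 4 of 10 PRPF genes, with SF3B1, LSM14A and SNRPA1 the others. The low pattern held in 8 of 11 LSm genes, 6 of 9 SF3A and SF3B genes, 3 of 4 Sm core genes, 3 PRPF genes (PRPF6, PRPF8 and PRPF31), both U2AF genes and SNRPA and SNRPC. No SR protein gene and no hnRNP gene showed the low pattern. These families were compared after the values were seen and no test was made of the difference between them.

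**Figure D3:**
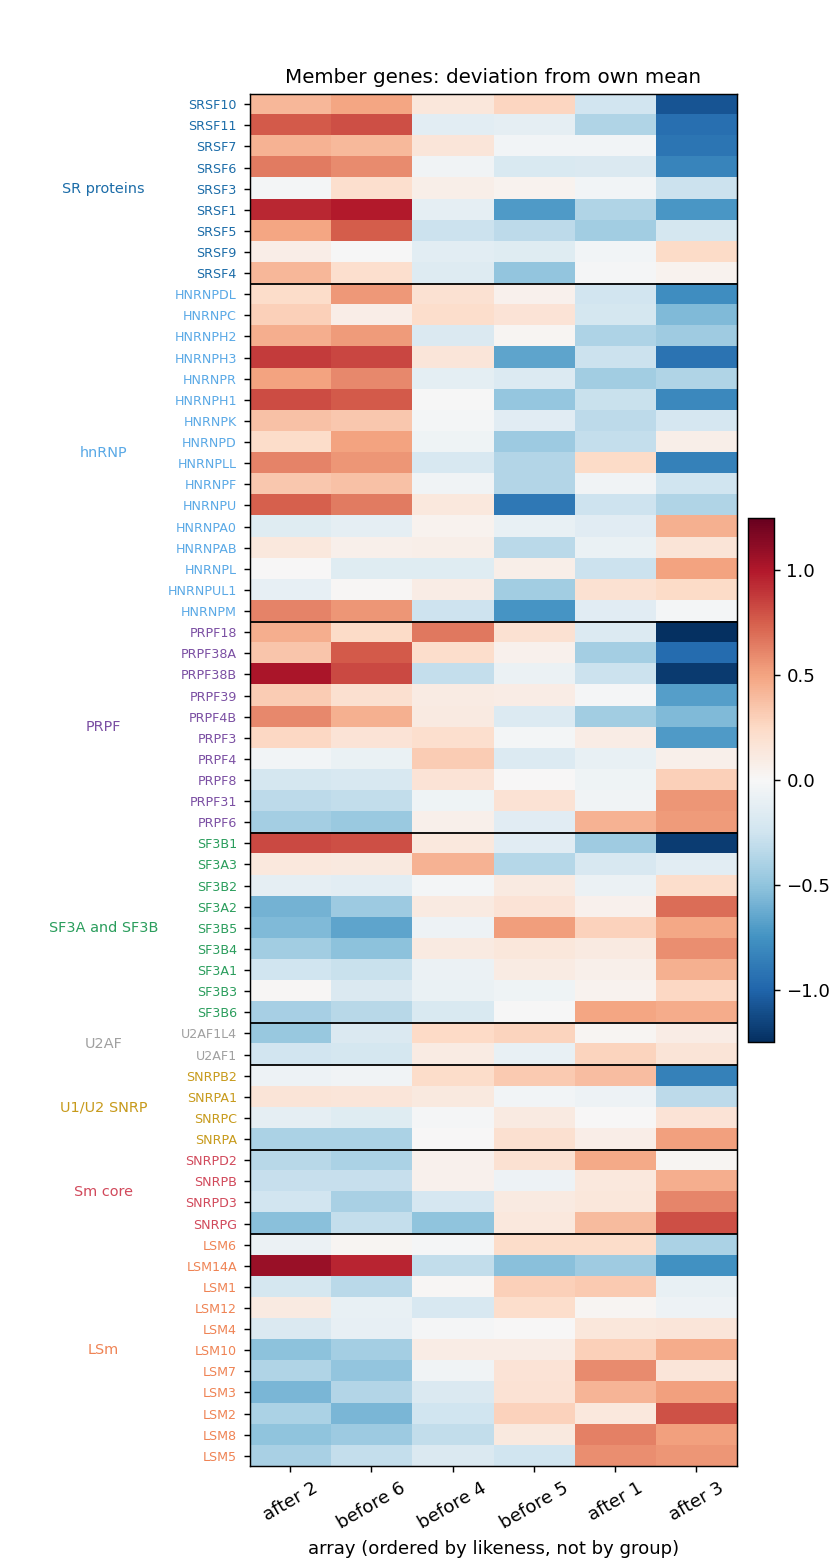
Deviation of each of the 65 genes (rows, by family) from its own mean over the 6 arrays (log2 intensity, colour), with arrays as columns ordered by likeness. Most SR protein and hnRNP genes are high on after 2 and before 6 and low on after 3, and most Sm core, LSm and SF3 genes are the reverse.

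The members were also compared within each group, with array pairs chosen after their values were seen. The difference of after 2 from after 3 and that of before 6 from before 5 had the same sign in 57 of 65 members, or 87.7%, against 79.2% of named genes. Of the 57, 29 were positive and 28 negative. The sizes were often unequal, as in PRPF18 (1.83 and 0.05) and LSM5 (-0.95 and -0.05). Within the group after cold, PRPF38B was 4.63-fold higher on after 2 than on after 3, and SNRPG 2.52-fold higher on after 3 than on after 2. The exceptions were HNRNPAB, HNRNPC, HNRNPUL1, LSM6, LSM12, PRPF4, SRSF9 and SNRPB2. A range of at least 2-fold over the 6 arrays was seen in 46.2% of members and 48.5% of named genes, and the SD was larger after cold than before in 80.0% of members and 77.7% of named genes. Between after 2 and before 6, on opposite sides of the cold, 0 members differed by 2-fold, as did 0.0473% of named genes. Between after 3 and before 6 the count was 21, or 32.3% against 34.7% of named genes, so the members were near the general share in both.

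**Figure D4:**
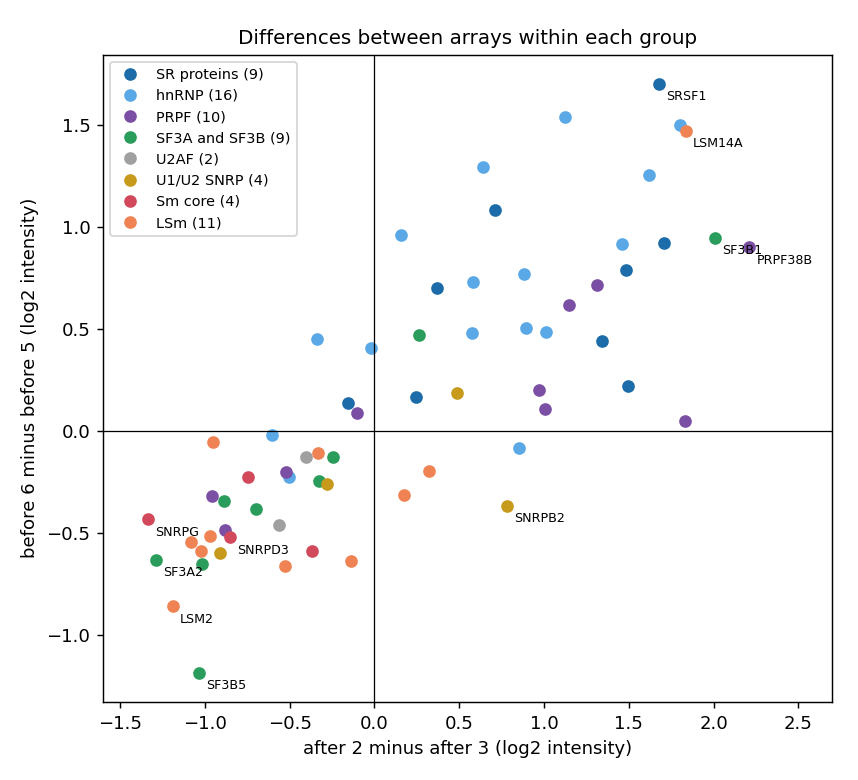
Each point is a member gene, coloured by family, with after 2 minus after 3 on the x axis and before 6 minus before 5 on the y axis (log2 intensity). SR protein and hnRNP genes lie mainly at the upper right and Sm core, LSm and SF3 genes at the lower left, and 57 of 65 points have the same sign on both axes.

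The comparison was also made without after 2 and before 6, a choice made after the values were seen. After 3, at -63.0 the most extreme array on the first principal component, was kept. In several genes named above after 2 was the after array within the range before cold. The counts below therefore depend in part on which arrays were left out. On the 4 remaining arrays 0 members passed an adjusted p of 0.05 in limma, and 0% of named genes did. At an unadjusted p under 0.05 there were 4 lower members, or 6.15% against 9.12% of named genes, and 3 higher ones, or 4.62% against 0.316%. The lower members were PRPF18 (-1.20 ± 0.42, SE), SRSF10 (-0.87 ± 0.33), PRPF38A (-0.84 ± 0.29) and SF3B1 (-0.81 ± 0.32). The higher members were SNRPG (0.79 ± 0.32), LSM5 (0.78 ± 0.24) and LSM8 (0.66 ± 0.27). Their adjusted p ran from 0.492 to 0.514 (limma). Values after cold lay wholly under those before in 24.6% of members against 23.3% of named genes, and wholly above in 24.6% against 24.6%. Without after 2 alone, 6 lower members (9.23% against 11.4% of named genes) and 5 higher ones (7.69% against 1.04%) had an unadjusted p under 0.05, with 0% of members and named genes past the adjusted threshold. Without each of the other 5 arrays in turn, before 6 included, 0 members had an unadjusted p under 0.05. Of all probe sets 0.0392% to 0.4% had one in those settings, so 0 members is near the general share. The additions to the set above were HNRNPDL and SRSF11 among the lower and SF3B6 and PRPF6 among the higher.

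A block for the animal would remove differences between animals, and the labels leave 6 ways to match the samples. Over these, 0 to 3 members had an unadjusted p under 0.05 in limma and 0 passed an adjusted p of 0.05. The most, 3, came with after 1 matched to before 4, after 2 to before 6 and after 3 to before 5. This matching joins the most alike arrays, after 2 and before 6, and was singled out after the values were seen. In limma with it 9.15% of all probe sets had an unadjusted p under 0.05. Matchings that do not join those arrays gave 0.188% to 0.548%. The 3 members were PRPF38A (-0.70 ± 0.18, SE with the block), HNRNPDL (-0.53 ± 0.17) and SF3B1 (-0.54 ± 0.22), each with an adjusted p = 0.492. That made 4.62% of members lower, against 6.61% of named genes, and 0 higher, against 1.81%, and 0% of named genes passed the adjusted threshold. In that matching HNRNPDL was lower in each pair, by -0.43, -0.32 and -0.84, and PRPF38A by -0.65, -0.42 and -1.02. SF3B1 was lower in the pairs of after 1 and after 3, by -0.57 and -1.05, and level in that of after 2, at 0.016. All 3 pairs were lower in 9 members, or 13.8% against 15.1% of named genes, 4 of them SR protein genes (SRSF1, SRSF3, SRSF10 and SRSF11). All 3 were higher in 10 members, or 15.4% against 25.9%, namely SRSF4, SRSF9, HNRNPM, SNRPB, SNRPD3, SNRPC, LSM2, SF3A1, SF3B3 and PRPF6. Both directions thus held SR protein genes, and SNRPB was level in the pair of after 2. LSM2 differed by 0.38, 0.17 and 0.51 and SNRPD3 by 0.35, 0.17 and 0.50, with unadjusted p of 0.0593 and 0.0663 in limma with this block.

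Other probe sets gave a check of single genes. Of 17 members with more than 1 probe set, 13 had the same sign of change in all of them, and HNRNPLL, LSM14A, SF3B6 and SRSF1 did not. HNRNPLL was at 0.01 ± 0.43 by its brightest probe set and at -0.10 ± 0.41 and -0.66 ± 0.53 by the others. The 3 HNRNPL probe sets, for a binder of CA repeats, gave 0.16 ± 0.28, 0.63 ± 0.40 and 0.14 ± 0.26.

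The chosen lists of related genes outside the name rule held 180 genes of splicing, snRNP assembly, mRNA export and linked kinases. Of these 132 were measured. After cold 73 means were higher and 59 lower, the median change was 0.03, and 0 passed an adjusted p of 0.05 in limma. The groups did not overlap in 2 higher genes (PDCD7 and SNRNP70), or 1.52%, and in 5 lower ones (PHAX, THOC1, CWC15, TXNL4B and SNRNP40), or 3.79%, near the 2.02% and 3.00% of named genes. PHAX, the adaptor that exports new snRNAs from the nucleus, was the 1 with an unadjusted p under 0.05 (0.0435, limma), or 0.758% of the list, near the 0.505% of named genes that were lower at that threshold. It was at 8.11, 8.89 and 7.47 after cold and at 8.95, 9.08 and 9.06 before, all after values under all before values, for a change of -0.88 ± 0.37 (SE; limma, adjusted p = 1.00). Of 15 genes of snRNP assembly and import 8 were higher and 7 lower, with SMNDC1 at -0.59 ± 0.40. Of 24 genes of the catalytic steps 14 were higher and 10 lower, with SNW1 at -0.82 ± 0.38 and CDC40 at -0.68 ± 0.41. Of 42 other RNA-binding regulators 18 were higher and 24 lower, among them ZRANB2 at -0.60 ± 0.41 and RBM39 at -0.55 ± 0.38. In this list the median deviation was 0.42 on both after 2 and before 6 and -0.33 on after 3, the order seen in the SR protein genes (0.43, 0.49 and -0.73). Of 28 other snRNP proteins 20 were higher and 8 lower, with PDCD7 at 0.38 ± 0.25 and TXNL4B at -0.33 ± 0.24. Of 15 genes of the exon junction complex and mRNA export 9 were higher and 6 lower, with THOC1 at -0.75 ± 0.41 and RBM8A at -0.32 ± 0.28. Of 8 kinases and partners of SR proteins 4 were higher and 4 lower, with SRPK2 at -0.43 ± 0.46 and CLK1 at -0.21 ± 0.31.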

How the data were processed

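The authors deposited 1 linear intensity per probe set and array. GCOS and RMA appear in the submitters' processing notes with no version, and a genome build, filters or detection calls were not found in those sources. The number of arrays limits the precision. Log2 of the values was used with no further normalization, pseudocount or filter. All 12763 probe sets were fitted with limma 3.58.1 in R 4.3.3, after minus before cold, two-sided, with no block, and p-values were adjusted by Benjamini-Hochberg over all of them. An exact permutation of 3 arrays against 3 cannot go below p = 0.1. The p-values treat the 6 arrays as independent although they come from 3 animals.

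Gene names came from the platform annotation, by which probe sets were divided (8125 with a single symbol, 56 with several, 4582 with none), and all 65 members matched a current RefSeq gene of the same symbol. The members, the families and the 6 lists of related genes were chosen with earlier results of these data known. The named genes are those with non-overlapping groups, the 2 largest changes per family, the 4 widest ranges, the 4 largest disagreements between probe sets, the 4 smallest changes, and 2 genes per related list by p. The members not covered by that rule were named to account for all, after their values were seen. The fit was tested on simulated data for this comparison over 12763 probe sets, where it called 7.46% of 67 probe sets changed by 1 on the log2 scale, 49.3% of 67 changed by 2 and 84.8% of 66 changed by 3, with 4 false calls among 98.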

Additional observations from a re-analysis of the deposited data

How the results depend on the processing

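The number of members past an adjusted p of 0.05 was 0 in all 23 alternative settings, as was that of all probe sets. Members at an unadjusted p under 0.05, 0 with all arrays and no block, were 2 with array weights (PRPF18 and SNRPB2; 3.08% against 5.19% of probe sets), 7 without after 2 and before 6 (10.8% against 9.67%), 3 with the matching 1-4, 2-6, 3-5 (4.62% against 9.15%) and 1 with 1-5, 2-6, 3-4 (1.54% against 5.14%). When single arrays were omitted they were between 0 and 11, with 11 for after 2 (16.9% against 14% of probe sets). For each of the other 5 they were 0 (0% against 0.0392% to 0.4% of probe sets). Members wholly lower after cold, 1 with all arrays, were 2 with cyclic loess. The share over named genes was not computed there, so this count cannot be set against a general share. Without after 2 and before 6 they were 16 (24.6% against 23.3% of named genes). With single arrays omitted they were between 1 and 15, with 15 for after 2 (23.1% against 20.7% of named genes). Members wholly higher, also 1 with all arrays, were 2 with quantile normalization, again with no share over named genes computed. With after 2 and before 6 left out they were 16 (24.6% against 24.6% of named genes). They were 13 without after 2 (20% against 22.1%), 4 without before 6 (6.15% against 4.69%) and 3 without after 1 (4.62% against 4.24%). Fewer arrays make such separation easier, and the cause of the other shifts was not tested. The median change of the members was 0.057 with median centring and 0.067 with cyclic loess. Of the 23 settings, 10 (the blocks, variance options and dim filters) leave the change of each gene they keep as it is by construction. The dim filters drop genes and so move medians, to 0.026 over the members without the dimmest 25% and 0.034 without the dimmest 50%. In the other 13 settings, of 481 values of 37 named genes, 449 kept their direction and 32 reversed. In all 13 of them 26 genes kept theirs. None of these values passed the adjusted threshold. With array weights U2AF1 was at -0.054, LSM14A at 0.22, HNRNPLL at -0.10, LSM1 at -0.17 and PRPF8 at -0.031. With the mean of all probe sets SF3B6 was at -0.13, LSM14A at 0.00893 and HNRNPLL at -0.25, and with the most variable one SF3B6 at -0.62 and HNRNPLL at -0.66. Without after 2 and before 6 HNRNPLL was at -0.019 and LSM1 at -0.039. Leaving out each array gave -0.64 to 0.38 for LSM14A, -0.30 to 0.44 for HNRNPLL, -0.15 to 0.16 for LSM1, -0.22 to 0.26 for HNRNPD, -0.85 to 0.00434 for SRSF11, -0.88 to 0.22 for PRPF38B, -0.053 to 0.33 for HNRNPL, -0.13 to 0.13 for PRPF8 and -0.38 to 0.062 for CLK1. No paired analysis was possible because samples are not tied to animals in the labels, and each of the 6 matchings was run as a block instead. Background was not measured, so the limit set by dim signal is unknown, and PRPF38A dropped out with a filter on the dimmest 25%.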
